A study of Mus musculus with 2 samples.

Results

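The 35 genes described here build, move or switch on motile cilia, the beating cell projections of ependymal and other multiciliated cells. They were named by symbol and looked up by Ensembl identifier, and all 35 were found among the 43346 genes of the tables. 2 of them, Dnai1 and Dnai2, stand in the annotation under the older symbols Dnaic1 and Dnaic2. The measurements are total RNA-seq of embryonic day 15.5 hindbrain from the mouse strain B6NCrl. There was 1 group of 2 biological replicates, a pool of 78 embryos (replicate 1) and a pool of 62 (replicate 2), each of both sexes. With a single tissue, stage and genotype there was no contrast between conditions, so the question was which of these genes the tissue expressed, from which transcripts, and how far the pools differed.

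Motile cilia are built around a ring of microtubule doublets and a central pair. Dynein arms on the doublets do the work of bending, radial spokes and the central pair steer it, and a ruler and a nexin link set the spacing of the parts. In the brain, ependymal cells and the epithelium of the choroid plexus carry many motile cilia per cell, and floor plate cells can carry single ones. The transcription factor Foxj1 switches on motile cilium genes together with factors of the Rfx family. Multicilin, the product of Mcidas, starts the multiciliated program, in which Myb acts and in which cyclin O, the product of Ccno, takes part in making the many basal bodies. Ependymal cells are known to grow their cilia mainly after birth, and choroid plexus cells earlier.

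The 2 libraries held 40020317 and 43263951 estimated counts in genes for replicates 1 and 2. Their gene counts differed by far more than counting noise (chi-square 12.4 per degree of freedom). The hindbrain genes Hoxa2, Hoxb2, Hoxa3, Hoxb3 and Hoxd3 had 10.3 to 41.4 TPM in replicate 1 and 10.2 to 39.9 TPM in replicate 2. All 9 radial glia markers were detected. Levels below are in TPM, a relative abundance that corrects for transcript length. Means are given with the SD over the 2 pools (n = 2). A gene is called detected at 1 TPM or more in both libraries. In bulk tissue, fewer cells of a type and less RNA per cell cannot be told apart.

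Before the values, the upstream sequences of 6 members are shown, because RFX factors bind a known element, the X-box, whose arms have the core letters GTTGCC. RefSeq promoters on GRCm38.p6 were on hand for 32 of the 35 members, counting Dnai1 and Dnai2 under their older symbols, and the 250 bases before the start were searched on both strands. The letters GTTGCC occurred in 10 of 32 members (31.3%), in 16 of 50 other motile cilia genes with a promoter (32.0%) and in 11.8% of all 27025 genes. The same core followed, after 2 unspecified bases, by GG occurred in 3 of 32 members (9.38%), 7 of 50 other motile cilia genes (14.0%) and 2.12% of all genes. A full X-box was searched only as a fixed longer pattern that may overlap the core, with both arms and exactly 2 unspecified bases between them. That fixed pattern occurred in 0 members, 2 of 50 other motile cilia genes (4.0%) and 0.444% of all genes. Looser arms and other spacings were not searched. The 0 therefore does not show that members lack an X-box with both arms. The fork head letters TGTTTAC occurred in 1 member, Cfap43, and in 3.54% of all genes, and the E2F letters TTTCCCGC in 0 members and 1.03% of all genes. These counts are matches of letters, not binding sites. Shown are Mcidas and Ccno, whose values differed most between the pools, and the 4 members with the letters whose coding transcripts were detected in both libraries. Capitals mark GTTGCC or its reverse complement, and each run is read 5′ to 3′ along the gene. The windows are chr13:112993618-112993867 on the plus strand for Mcidas, chr13:112987552-112987801 on the plus strand for Ccno, chr17:56831009-56831258 on the minus strand for Rfx2, chr11:114727169-114727418 on the plus strand for Dnai2, chr5:30281143-30281392 on the plus strand for Drc1 and chr11:72361883-72362132 on the minus strand for Tekt1.
Mcidas: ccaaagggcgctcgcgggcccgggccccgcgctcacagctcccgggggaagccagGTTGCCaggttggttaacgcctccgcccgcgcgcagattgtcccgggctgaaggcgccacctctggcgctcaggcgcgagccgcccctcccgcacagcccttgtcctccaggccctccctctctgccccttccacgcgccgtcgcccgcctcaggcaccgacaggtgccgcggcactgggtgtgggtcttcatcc
Ccno: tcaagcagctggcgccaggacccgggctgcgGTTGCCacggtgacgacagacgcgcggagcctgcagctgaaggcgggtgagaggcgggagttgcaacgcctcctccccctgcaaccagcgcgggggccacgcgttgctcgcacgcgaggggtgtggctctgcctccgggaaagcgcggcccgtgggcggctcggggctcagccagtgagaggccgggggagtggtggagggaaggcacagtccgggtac
Rfx2: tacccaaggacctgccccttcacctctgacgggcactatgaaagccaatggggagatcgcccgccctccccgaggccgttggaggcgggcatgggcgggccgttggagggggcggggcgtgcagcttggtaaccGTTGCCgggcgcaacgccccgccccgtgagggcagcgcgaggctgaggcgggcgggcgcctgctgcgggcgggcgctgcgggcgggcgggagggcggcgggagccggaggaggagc
Dnai2: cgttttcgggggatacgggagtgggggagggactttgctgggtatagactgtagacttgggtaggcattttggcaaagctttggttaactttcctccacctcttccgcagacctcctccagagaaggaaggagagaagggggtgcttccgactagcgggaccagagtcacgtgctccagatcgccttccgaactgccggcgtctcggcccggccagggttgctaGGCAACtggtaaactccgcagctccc
Drc1: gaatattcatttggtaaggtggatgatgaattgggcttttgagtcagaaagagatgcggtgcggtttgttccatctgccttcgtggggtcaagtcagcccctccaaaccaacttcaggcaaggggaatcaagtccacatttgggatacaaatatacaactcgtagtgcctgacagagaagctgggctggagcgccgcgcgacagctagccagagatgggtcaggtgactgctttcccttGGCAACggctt
Tekt1: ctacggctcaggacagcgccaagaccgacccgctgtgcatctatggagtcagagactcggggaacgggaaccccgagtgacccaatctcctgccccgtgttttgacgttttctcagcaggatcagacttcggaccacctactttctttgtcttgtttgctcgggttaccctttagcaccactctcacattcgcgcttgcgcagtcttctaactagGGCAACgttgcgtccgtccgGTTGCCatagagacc
The match began 11 bases before the RefSeq start in Drc1, 26 in Dnai2 and 116 in Rfx2. Tekt1 held a pair of matches, beginning 35 and 15 bases before its RefSeq start. GENCODE M21 gives Tekt1 the span 72344722 to 72362442, so its window and both matches lie inside the gene as M21 places it. In Mcidas and Ccno the match lay farther out, 195 and 219 bases before the start. In GENCODE M21 both these genes lie on the plus strand of chromosome 13, Ccno from 112987802 to 112990777 and Mcidas from 112993845 to 113000394, with Cdc20b, another gene of the multiciliated program, downstream from 113035111 to 113091195.

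Of the 35 members, 23 were detected (65.7%), beside 63.1% of the 21461 nuclear protein-coding genes. The share was thus near that of coding genes at large. The level was lower: the members' median was 2.22 ± 0.149 TPM, against 5.72 ± 0.0212 TPM for all nuclear protein-coding genes. Of the 12 members not detected, 5 reached 1 TPM in 1 library only (Mcidas, Ccno, Dnali1, Rsph4a and Tekt4) and 7 in neither (Dnah5, Dnah6, Dnah10, Dnah11, Dnah12, Hydin and Spag17). No member was at 0 counts in either library.

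**Figure D1:**
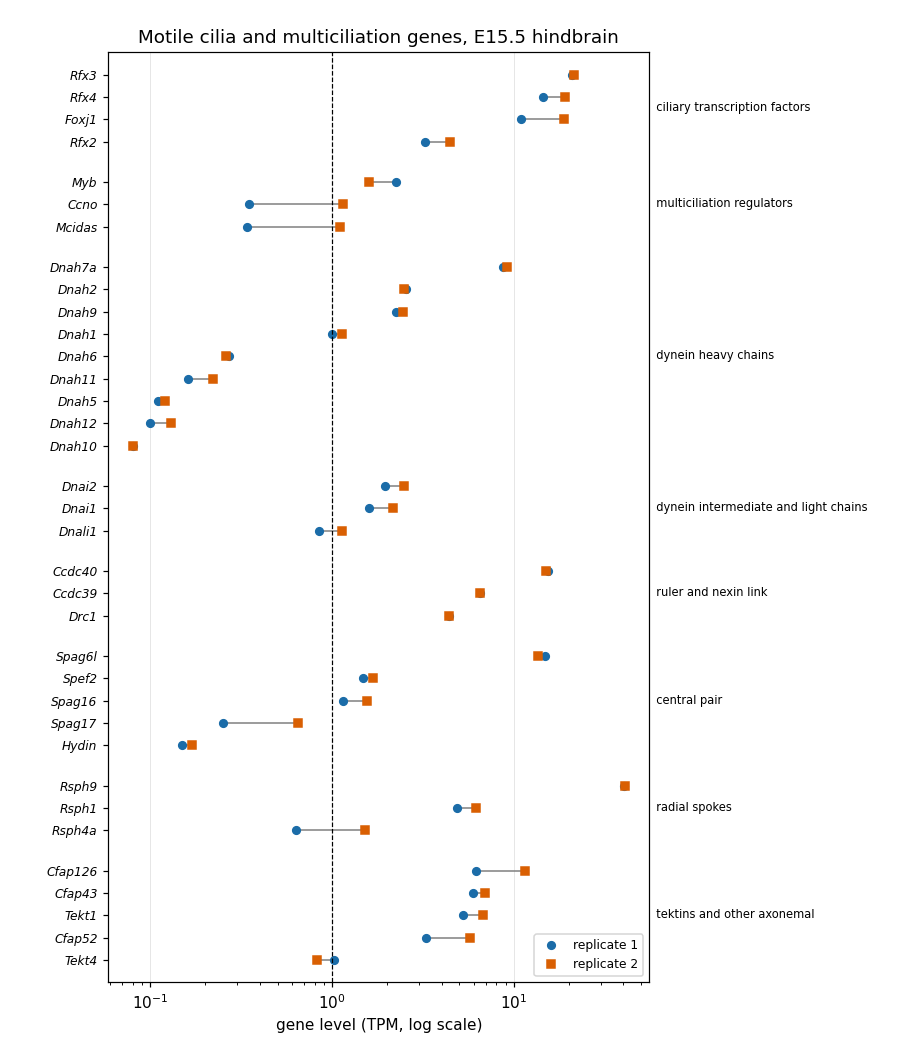
Gene level in TPM on a log axis for the 35 members, by role, with 1 point for each library and a dashed line at 1 TPM. Levels run from 0.08 TPM (Dnah10) to 40.4 TPM (Rsph9), and the widest gaps between the pools are those of Ccno, Mcidas, Spag17 and Rsph4a.

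The transcription factors were among the highest members, and all 4 were detected. Rfx3, an Rfx factor active in ciliated cells of many tissues, was at 20.8 TPM in replicate 1, against 21.3 TPM in replicate 2. Rfx4, an Rfx factor of the neural tube, had 14.4 and 19.2 TPM in the same order. Foxj1 had 11.0 TPM in replicate 1, against 18.8 TPM in replicate 2. Rfx2, the fourth, was lower at 3.23 and 4.45 TPM. Rfx3 was close in both pools, and replicate 1 lay below replicate 2 for the other 3. In the order of mean levels Rsph9 (40.4 ± 0.438 TPM) and Rfx3 (21.1 ± 0.347 TPM) led. Rfx4 (16.8 ± 3.38 TPM), Ccdc40 (15.1 ± 0.304 TPM), Foxj1 (14.9 ± 5.51 TPM) and Spag6l (14.1 ± 0.834 TPM) followed. The means of these 4 lay closer together than the SD of Foxj1, whereas Ccdc40 exceeded Spag6l by more than either SD. In coding transcripts that order turned round, with Ccdc40 at 4.82 ± 0.318 TPM and Spag6l at 9.85 ± 0.149 TPM.

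The regulators that start multiciliation were near or below the minimum. Mcidas had 0.34 TPM from 20 counts in replicate 1 and 1.10 TPM from 68 counts in replicate 2. Ccno had 0.35 TPM from 16 counts and 1.15 TPM from 56 counts. Both lay above the level of 3 counts, which is 0.0514 and 0.0487 TPM for Mcidas and 0.0652 and 0.0618 TPM for Ccno in replicates 1 and 2. Myb, also a gene of dividing blood cell precursors and neural progenitors, went the other way with 2.23 TPM in replicate 1, against 1.60 TPM in replicate 2. Of the wider set of 14 genes of multiciliation and centriole amplification, 9 were detected, led by Tfdp1 (78.6 ± 1.37 TPM), E2f4 (35.7 ± 4.65 TPM) and E2f5 (23.3 ± 0.594 TPM), which serve the cell cycle in other cells too. The members of that set known mainly from multiciliated cells were low. Gmnc, which acts before Mcidas, had 0.43 and 0.57 TPM, Cdc20b 0.19 and 0.42 TPM and Ccdc78 0.17 and 0.54 TPM in replicates 1 and 2. Deup1, which builds the platforms on which basal bodies are made, was detected at 1.06 TPM in replicate 1, against 1.85 TPM in replicate 2.

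Among the dynein heavy chains, the motors of the arms, 4 of 9 reached 1 TPM in both libraries, but only Dnah1 and Dnah9 did so in their protein-coding transcripts. Dnah1, an inner arm chain with 1 annotated transcript, stood at the minimum with 1.00 and 1.13 TPM. Dnah9, an outer arm chain, had 2.23 and 2.44 TPM, of which 1.55 and 2.05 TPM in coding transcripts. Most of the latter lay in a coding transcript of 2671 nt with 1.17 and 1.58 TPM. The coding transcript of 13798 nt had 0.30 and 0.35 TPM, below the minimum. Dnah5, the outer arm chain that pairs with Dnah9 in part of the cilium, had 0.11 TPM in replicate 1, against 0.12 TPM in replicate 2. These values came from 46 and 51 counts over 15630 nt. Dnah6, Dnah10, Dnah11 and Dnah12 had means of 0.08 to 0.265 TPM. Dnah11 is an outer arm chain, and the others belong to inner arms. The 5 low chains rested on 17 to 90.0 counts a library.

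Dnah7a looked abundant at 8.68 and 9.16 TPM, but the transcript that carried it does not code for protein. A processed transcript of 732 nt held 8.67 TPM in replicate 1, against 9.13 TPM in replicate 2. The coding transcript of 12245 nt held 0.01 and 0.03 TPM. In addition 20.0% of the 100-nt windows in the coding transcripts of Dnah7a also occur in transcripts of other genes, mainly its near copy Dnah7c, so its split is uncertain. Dnah2 had 2.53 and 2.49 TPM as a gene, but 0.65 and 0.80 TPM in coding transcripts, behind a shorter processed transcript. By counts its coding transcripts held 230 of 330 in replicate 1 and 296 of 392 in replicate 2. Exons of Dnah2 overlap those of an opposite-strand gene, Dnah2os, and the strand setting of the counting is not stated.

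The smaller chains were near the minimum. Dnai1 and Dnai2, intermediate chains of the outer arm, had 1.60 and 1.96 TPM in replicate 1 and 2.15 and 2.48 TPM in replicate 2. In coding transcripts Dnai1 had 0.88 and 1.01 TPM, since a retained-intron transcript held the rest, and Dnai2 had 1.76 and 1.74 TPM. Dnali1, a light intermediate chain of inner arms, had 0.85 TPM in replicate 1, against 1.13 TPM in replicate 2. Of 11 genes that help assemble dynein arms in the cytoplasm 9 were detected, led by Pih1d1 (76.8 ± 4.01 TPM), Dnaaf2 (12.4 ± 0.615 TPM) and Dnaaf5 (4.00 ± 1.31 TPM). Pih1d3 was at 0 counts in both libraries, which allows up to 0.0857 and 0.0812 TPM. Of 4 genes that dock the outer arm 3 were detected, with Ccdc114 at 6.64 ± 1.30, Ccdc151 at 3.72 ± 0.0495 and Ttc25 at 2.16 ± 0.0424 TPM. Of 10 other dynein chains 4 were detected, led by Dnal4 (50.6 ± 0.141 TPM), Dnal1 (5.94 ± 0.347 TPM) and Wdr78 (4.76 ± 0.877 TPM). Dnah14 was at 0 counts in both libraries, which allows up to 0.102 and 0.0968 TPM at its listed length of 1233 nt. That length is short beside the 15630 nt of Dnah5, so the value may not cover the whole gene.

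All 3 members of the ruler and nexin link were detected and nearly equal in the pools. Ccdc39, a ruler protein, had 6.49 TPM in replicate 1, against 6.50 TPM in replicate 2. Its exons overlap the opposite-strand gene Ttc14 over 1256 bases, and reads there cannot be assigned to either gene if strand was not used. Its partner Ccdc40 had 15.3 and 14.9 TPM as a gene, of which only 4.59 and 5.04 TPM in coding transcripts, with a processed transcript in the lead by TPM. By counts the coding transcripts of Ccdc40 held 442 of 750 in replicate 1 and 488 of 794 in replicate 2. Drc1, a subunit of the nexin link, had 4.37 TPM in each library from 1 annotated transcript. On the coding scale the 3 genes thus lay between 4.37 and 6.50 TPM.

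The spoke and central pair genes ranged widely. Rsph9, a radial spoke head protein, was the highest member at 40.1 and 40.7 TPM, and its main coding transcript held 37.8 and 37.7 TPM. Rsph1, of the same spoke head, had 4.83 TPM in replicate 1, against 6.18 TPM in replicate 2. Rsph4a, the third, had 0.63 TPM from 58 counts in replicate 1 and 1.51 TPM from 147 counts in replicate 2. Parts of 1 spoke head thus differed in level by more than the gap between the pools. In the central pair, Spag6l had 14.7 and 13.6 TPM, of which 9.74 and 9.95 TPM in coding transcripts. Spef2 had 1.48 and 1.67 TPM and Spag16 1.15 and 1.55 TPM. Spag16 reached 0.54 TPM in replicate 1, against 1.37 TPM in replicate 2 in coding transcripts. Hydin, a giant central pair protein, had 0.15 and 0.17 TPM. Spag17 had 0.25 and 0.65 TPM, but 0.14 TPM in each library in its coding transcript, and 9.66% of its exon bases overlap the opposite-strand gene Wdr3. Of 18 further genes of the link, spokes and central pair 14 were detected, led by Rsph3b (40.5 ± 2.23 TPM), Gas8 (32.5 ± 2.83 TPM) and Rsph3a (27.9 ± 1.39 TPM). Rsph3a and Rsph3b are related copies and their split may be uncertain.

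Tektins and other proteins inside or beside the doublets were detected in 4 of 5 cases. Tekt1, a filament protein of the doublets, had 5.24 and 6.75 TPM in replicates 1 and 2. Tekt4, of the same family, had 1.02 TPM in replicate 1, against 0.82 TPM in replicate 2. Cfap52, a protein inside the doublets, had 3.28 TPM in replicate 1, against 5.76 TPM in replicate 2. Cfap126, which positions basal bodies, had 6.15 TPM in replicate 1, against 11.5 TPM in replicate 2, and 4.17 and 7.43 TPM in coding transcripts. Among 12 other microtubule inner proteins 8 were detected, led by Cfap20 (84.9 ± 2.59 TPM), Nme7 (26.3 ± 0.354 TPM) and Tekt2 (8.86 ± 0.375 TPM), and Tekt3 was at 0 counts in both libraries, which allows up to 0.0703 and 0.0666 TPM.

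The value of Cfap43 is mostly that of another gene. The tables give Cfap43 5.98 TPM in replicate 1, against 6.94 TPM in replicate 2. Of this, 4.72 and 4.90 TPM came from 1 transcript of 3764 nt that the later GENCODE M21 annotation assigns to Itprip, a gene on the same strand of chromosome 19 whose span (47894602 to 47919299) lies almost wholly inside that of Cfap43 (47736857 to 47919287). Without it Cfap43 had 1.26 and 2.04 TPM, and 0.32 and 0.68 TPM in its own coding transcripts. No other transcript of a gene in these lists had moved to another gene in M21.

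Counting only protein-coding transcripts that M21 gives to the gene itself, 18 of 35 members (51.4%) were detected, beside 61.5% of nuclear protein-coding genes counted the same way. The 5 members that drop out are Dnah2, Dnah7a, Dnai1, Spag16 and Cfap43. The median member level was then 1.07 TPM, against 4.61 TPM for all nuclear protein-coding genes. A transcript that does not code for protein led in 6 members, and 11 members had a single transcript in the tables. The split between transcripts was unstable in several members. In Dnah6, Dnah10 and Rfx4 it changed between coding transcripts from library to library. In Spag16 1 coding transcript had 2.74 counts in replicate 1 and 41.8 in replicate 2, while a noncoding one had 14.9 and 0.19, so its loss of coding detection rests on that split. In Spag17 and Cfap126 transcript shares moved too, with that of 1 coding transcript at 58.3% and 21.5% in Spag17 and 54.1% and 25.3% in Cfap126.

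**Figure D2:**
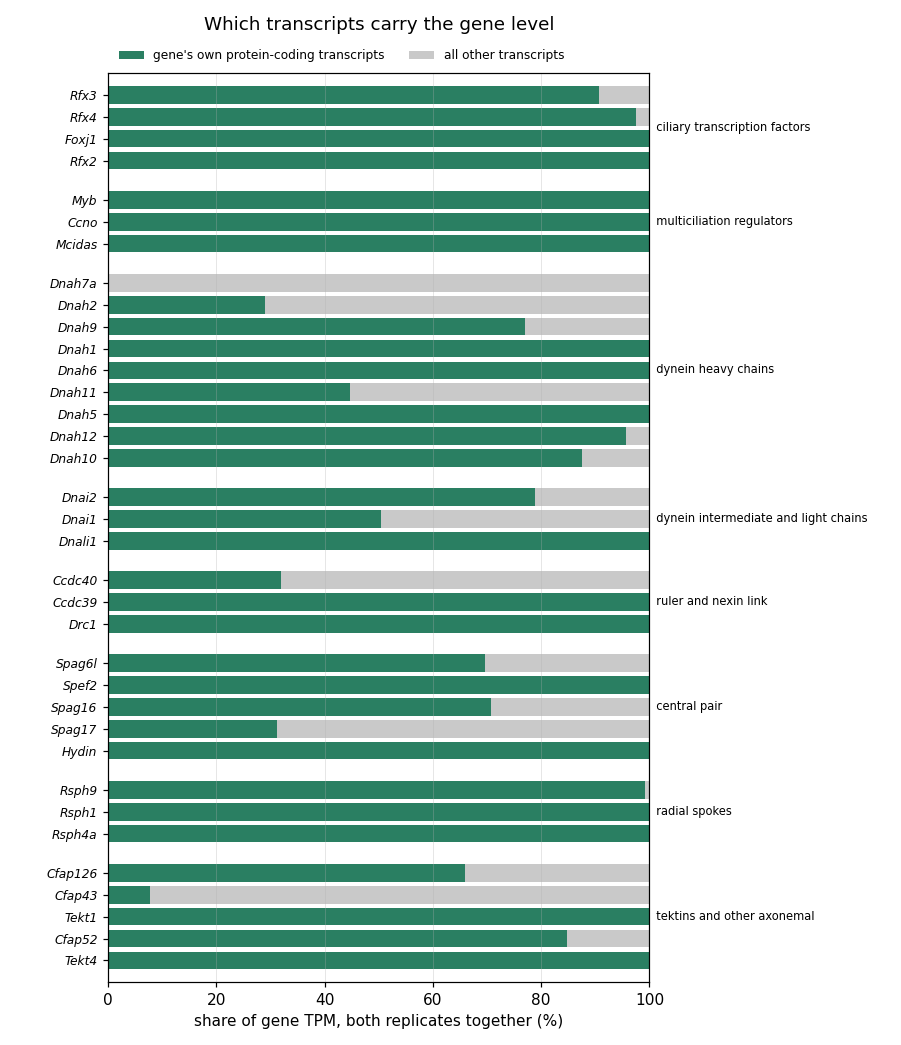
Share of each member's gene TPM, both libraries together, that lay in its own protein-coding transcripts (green) or in all other transcripts (grey). Dnah7a (0.224%), Cfap43 (7.74%) and Dnah2 (28.9%) have the smallest green parts, and Foxj1, Mcidas and Ccno are at 100%.

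The primary cilium is the single signalling cilium of most cells. All 22 of its genes, transport along it included, passed the minimum. Their median was 18.4 ± 0.0460 TPM and their lowest mean 3.59 TPM. Kif3a, Ift46 and Ift20, which move cargo along cilia, led. Kif3a was at 246 and 244 TPM, Ift46 at 124 and 122 TPM and Ift20 at 99.6 and 97.5 TPM in replicates 1 and 2. Of all 69 other motile cilia genes, 47 passed it (68.1%), at a median of 2.56 ± 0.375 TPM. The difference in level between the lists was not tested, since a list is a set of chosen genes.

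Markers of ciliated cell types were uneven. Of 12 ependymal genes 9 were detected and 3 were at or near 0. Sntn had 0 counts in both libraries, which allows up to 0.102 and 0.0962 TPM, and Tmem212 and Ccdc153 each had 0 counts in replicate 1 and 1 count in replicate 2. The highest ependymal genes were Cd24a (552.9 ± 3.49 TPM), which neurons also make, Dynlrb2 (13.2 ± 3.78 TPM) and Fam183b (8.29 ± 0.559 TPM). Pifo, Meig1, Lrriq1 and Odf3b, also known from motile cilia or ciliated cells, were detected at means of 1.55 to 5.78 TPM. 12 of 14 choroid plexus markers passed the minimum, with Ttr at 1025 ± 223, Folr1 at 32.6 ± 12.4 and Otx2 at 22.7 ± 7.71 TPM. Floor plate genes were detected in 5 of 7 cases, with Spon1 at 57.3 ± 4.02, Ntn1 at 18.8 ± 1.71 and Lmx1b at 4.46 ± 0.728 TPM, each also made elsewhere. Inner ear sensory genes were detected in 1 of 6 cases, and the highest were Otof at 6.21 ± 0.686 TPM, Pou4f3 at 5.06 and 0.71 TPM and Myo15 at 0.17 ± 0.0141 TPM.

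The pools were then compared as the log2 ratio of replicate 1 over replicate 2, after scaling, so a negative value means lower in replicate 1. Each pool is 1 library, so no p-value was computed and the 95% exact (Clopper-Pearson) intervals cover counting error only. All 35 members had a mean count of 20 or more and were compared. The median ratio was -0.21 for members and 0.00 for all genes, and replicate 1 was lower for 25 members (71.4%) and higher for 10. Of all genes compared, 49.7% were lower in replicate 1. Intervals lay wholly below 0 for 11 members (31.4%), beside 18.9% of genes, and wholly above 0 for 1 (2.86%), Myb, beside 19.1% of genes.

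6 members (17.1%) were lower in replicate 1 by 1.5-fold or more, beside 2.17% of the 17059 genes compared, and 0 were higher by as much, beside 4.29%. Over both directions the share of all genes was 6.47%. Ccno had a log2 ratio of -1.66 (interval -2.60 to -0.87) and Mcidas -1.63 (-2.45 to -0.92). Rsph4a had -1.22 (-1.69 to -0.78). Foxj1 had -0.74 (-0.87 to -0.61) on 717 and 1295 counts in replicates 1 and 2, the largest counts of the 6. Cfap126 and Cfap52 had -0.72 (-1.05 to -0.39) and -0.67 (-0.96 to -0.39). These 6 comprise the multiciliation genes Mcidas and Ccno, the activator Foxj1, and 3 structural or basal body proteins. Low counts spread more: between mean counts of 20 and 200, 4 of 20 members and 7.41% of genes were lower in replicate 1 by that fold, and at 200 or more 2 of 15 members and 0.287% of genes.

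**Figure D3:**
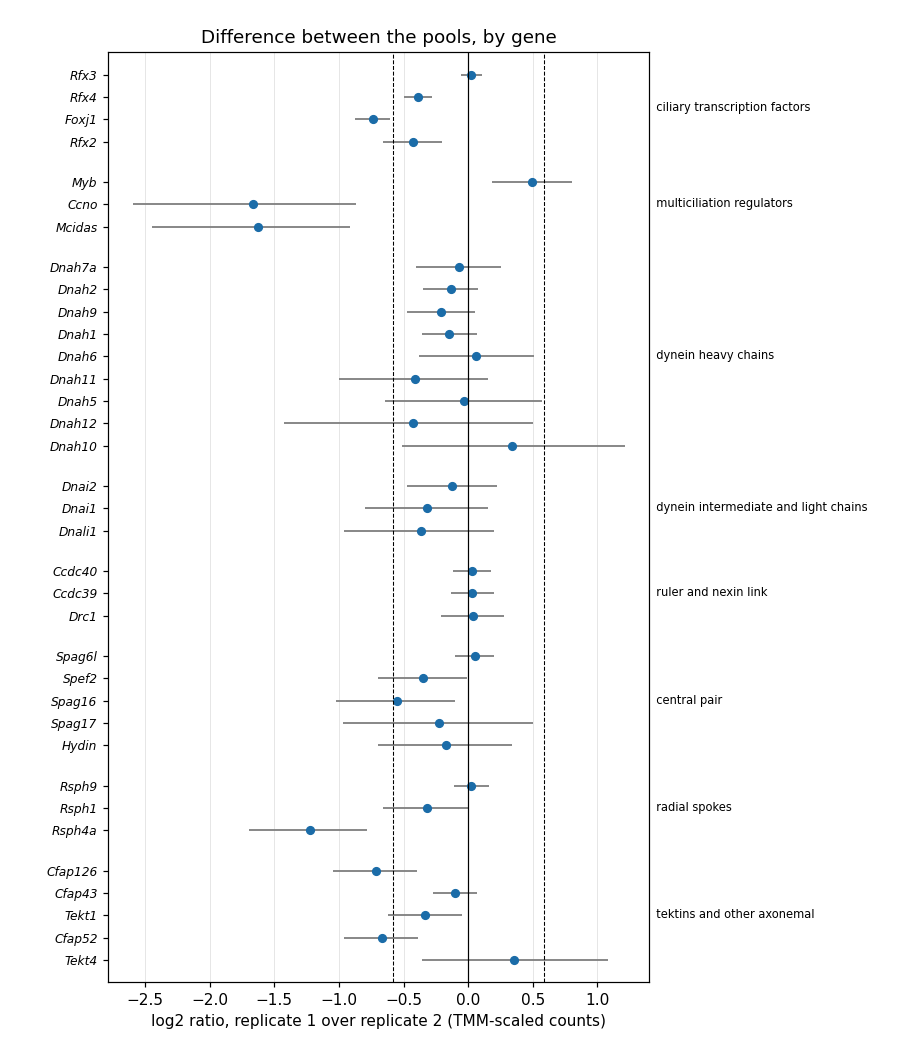
Log2 ratio of replicate 1 over replicate 2 for each member, by role, with 95% exact intervals for counting error and dashed lines at 1.5-fold. Ccno, Mcidas, Rsph4a, Foxj1, Cfap126 and Cfap52 lie beyond the left line, and the 3 ruler and nexin link genes lie at 0.03 to 0.04.

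Among the other motile cilia genes 8 of 60 compared (13.3%) were lower in replicate 1 by 1.5-fold or more, beside 2.17% of all genes. A single 1 (1.67%) was higher, beside 4.29% of all genes. The lower ones were Trp73 (-1.41), Wdr63 (-1.19), Ribc2 (-1.10), Dnajb13 (-0.89), Deup1 (-0.83), Efhc2 (-0.79), Dnaaf1 (-0.78) and Dnaaf5 (-0.65), named after their values were seen. In replicates 1 and 2 Ribc2 had 20 and 47 counts, Trp73 30 and 86.8, and Dnaaf5, the most of the 8, 266 and 452. Between mean counts of 20 and 200, 7.41% of all genes were lower in replicate 1 by that fold. Trp73 encodes a factor upstream of Foxj1 in multiciliated cells, Deup1 acts in basal body amplification and Dnajb13 sits in the radial spoke. The higher one was Foxn4 at 2.68, from 44 counts in replicate 1 and 7 in replicate 2, which also acts in interneuron progenitors. The median of these 60 genes was -0.08, beside 0.00 for all genes, and 0.03 with spike-in scaling, which moved the median of all genes to 0.11.

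Most markers of choroid plexus, most ependymal markers compared and all of floor plate were lower in replicate 1, as most members were. Among ependymal markers, intervals that left out 0 went both ways. Among all genes compared, 49.7% were lower in replicate 1 and 18.9% had intervals wholly below 0. At high counts an interval leaves out 0 at a small shift, as for the floor plate gene Spon1 at -0.11 on 8318 and 9709 counts. Replicate 1 was lower for 12 of 14 choroid plexus genes, with a median ratio of -0.30 and intervals wholly below 0 for 8. Their summed level was 1012 TPM in replicate 1, against 1358 TPM in replicate 2, and 144 and 175 TPM without Ttr. Folr1 was lower in replicate 1 by 1.5-fold or more at -0.73, while Otx2, also a gene of other brain cells, and Prlr, a hormone receptor, were higher at 0.84 and 0.48. All 7 floor plate genes were lower in replicate 1, with a median of -0.28 and intervals wholly below 0 for 5. Their summed levels were 79.6 and 91.1 TPM, of which Spon1, also made elsewhere, held 54.4 and 60.1 TPM. Of 9 ependymal genes compared 6 were lower and 3 higher in replicate 1, with a median of -0.12. The lower ones were Dynlrb2, Fam183b, Pifo, Meig1, Lrriq1 and Odf3b. Only Odf3b passed 1.5-fold, at -0.63 with an interval that held 0. Intervals lay below 0 for 1 gene (Dynlrb2) and above 0 for 2 (Cd24a and S100b). The 12 ependymal genes summed to 598 TPM in replicate 1, against 599 TPM in replicate 2. Cd24a, which neurons also make, alone held 555 and 550 TPM of these sums. Of 3 inner ear genes compared 2 were higher in replicate 1, with Pou4f3 at 2.85. Blood cell genes went the other way, with a median of 0.33 and the globin genes Hba-a2, Hbb-bs and Hba-a1 at 6319 ± 1039, 3269 ± 659 and 2359 ± 315 TPM. The part of any of these cell types in the members' difference was not tested.

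None of the 22 primary cilium genes passed 1.5-fold in either direction, beside 6.47% of all genes compared. At mean counts of 200 or more, 0.287% of all genes were lower in replicate 1 by that fold. The median of the primary cilium genes was -0.01, or 0.10 with spike-in scaling, which moves all genes alike. The members' median under that scaling was -0.10, still below that of all genes. Radial glia genes, led by Fabp7 (1780.0 ± 48.5 TPM), Vim (402 ± 25.7 TPM) and Slc1a3 (171 ± 17.8 TPM), had a median of -0.01, which became 0.10 under it. Whether the members' ratios differ from those of primary cilium genes was not tested.

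**Figure D4:**
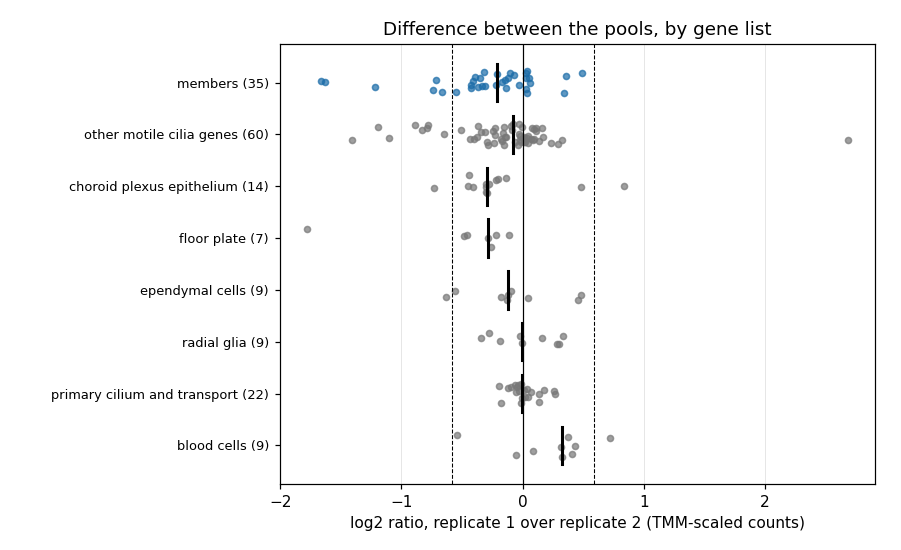
Log2 ratio of replicate 1 over replicate 2 for the genes of each list that had at least 20 counts on average, with the number of genes in brackets, a black bar at the median and dashed lines at 1.5-fold. Medians are -0.21 for the members, -0.30 for choroid plexus, -0.28 for floor plate and -0.01 for primary cilium genes.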

How the data were processed

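Total RNA of E15.5 mouse hindbrain was measured in 2 libraries, each made, per the labels, from 10 ng of size-selected RNA (over 200 nt) plus spike-ins. Per the file headers and notes, the tables derive from transcriptome alignments to mm10 and GENCODE M4, library by library. Aligner, quantifier and strand setting: not given in the sources used here. Estimated counts, deposited for genes and transcripts, are unnormalized reads. Deposited TPM sums to the same total over all features of each file, spike-ins included, and deposited FPKM matched counts per effective length and assigned reads when recomputed. The deposited upper bound of the TPM interval is a signal listed but not used in any result. Deposited transcript length exceeds effective length by 99 nt, which gave the 100-nt windows.

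Identifiers without version were matched to GENCODE M21 (GRCm38, equal to mm10) for symbol, type and position, with 42462 genes matched and 884 not. Spike-ins (2.86% and 3.09% of counts in replicates 1 and 2) and 26248 numeric features stayed out. Estimated counts were rounded, TMM-scaled (edgeR 4.0.16, R 4.3.3) and compared with a prior count of 0.5 where the mean count reached 20. Confidence is 95% and a floor is 3 counts per library. Reads without molecular identifiers are not independent molecules, and intervals and floors cover counting error only. The ratio was tested on simulated counts with known folds. The pools are labelled biological replicates, and with 1 library each no p-value was computed.

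Alternatives were other TPM or FPKM minimums, posterior mean TPM, the lower TPM bound, TPM over coding genes, DESeq2 1.42.0 size factors, library and spike-in totals, other count minimums and TPM ratios. Members, lists and tests were chosen with earlier results of these data known. By rule all members were described, with the 3 highest genes of each list and those at 0 in both libraries. 1 gene of these lists is not reported here by name.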

Additional observations from a re-analysis of the deposited data

How the results depend on the processing

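The count of detected members was 23 and ranged from 17 (minimum of 2 TPM) to 27 (without replicate 1), and the count in coding transcripts was 18 and ranged from 13 to 24. Neither moved by over 1.5 times. The median member level of 2.22 TPM moved to 2.505 on posterior mean TPM, 2.82 on TPM over nuclear coding genes and 1.375 on FPKM, which is another scale. Leaving out a replicate gave 2.23 to 2.44 TPM. Chosen after seeing the data, coding transcripts alone gave 1.07 TPM and removal of the Itprip transcript 1.915 TPM. The median log2 ratio of members was negative under all 7 alternatives, from -0.21 to -0.09. The 6 members past 1.5-fold became 3 at 2-fold, namely Ccno, Mcidas and Rsph4a, and 4 to 7 under the others. With spike-in totals the count was again 6, but Cfap52 (-0.56) left it and Myb (0.60) entered it as higher in replicate 1. With TPM and a pseudocount of 1 the ratios of Mcidas, Ccno and Rsph4a shrank to -0.65, -0.67 and -0.62. Ratios need both pools, so no value without a replicate exists for them. No paired analysis was possible because there is only 1 group. Genes near 20 counts, such as Mcidas and Ccno in replicate 1, are limited most by depth.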
